A study of Mus musculus with 22 samples.

Results

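The 10 genes described here (Atf4, Atf3, Ddit3, Trib3, Chac1, Sesn2, Ddit4, Asns, Psat1 and Phgdh) belong to the stress response that the transcription factor ATF4 drives. They were chosen by symbol, and all 10 were found among the 11208 genes of the normalized count table. Polyadenylated RNA came from NIH/3T3 cells, a mouse fibroblast line, with a stably integrated doxycycline-inducible construct that carried either E2F1 (the E2F1 line) or no insert (empty vector, the EV line). All cells were first held for 48 h in 0.25% serum, which brings fibroblasts to a resting state. The 11 groups of 2 libraries each were 3 series: 500 ng/ml doxycycline in the E2F1 line, sampled at 0, 2, 6 and 12 h, the same treatment and times in the EV line, and 10% serum in the EV line, sampled at 2, 6 and 12 h.

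The 0 h EV libraries served as the baseline of both EV series, so the doxycycline and serum comparisons of that line share them. Whether each line is a clone or a pool, and whether replicates were separate cultures, is not given in the sources used here, so p-values measure the spread between these samples, which may be technical. All values below are normalized counts, and log2 changes were taken of log2(value + 1), so those of genes with small counts come out too small. Adjusted p-values are from limma with Benjamini-Hochberg adjustment over all 11208 genes of a comparison, and a change was called at an adjusted p of at most 0.05.

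Cells that run short of amino acids, fold proteins poorly in the endoplasmic reticulum (ER) or meet other stresses activate kinases that phosphorylate the translation factor eIF2alpha. General translation then slows while the Atf4 message is translated more, so ATF4 protein can rise with or without a change in its RNA. ATF4 pairs with C/EBP-type partners on a short DNA element and switches on genes for amino acid synthesis and transport, for redox balance and, under lasting stress, for cell death. In growing fibroblasts the mTORC1 kinase, which answers to growth factors, is also known to raise ATF4 output. RNA counts such as these show transcripts only, not ATF4 protein or eIF2alpha phosphorylation.

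Some libraries stood apart from their labels' lines in a way that bears on the 2 h groups. Ddx3y, a Y-linked gene that separates the lines, stood at 580 and 521 in the E2F1 line and at 9 and 4 in the EV line at 0 h. The EV libraries had 103 and 71 after 2 h of doxycycline and 132 and 170 after 2 h of serum, 31 and 18 after 6 h of doxycycline and 19 to 48 in the later serum libraries, while those at 12 h of doxycycline were back at 9 and 4. In the E2F1 line the 2 h libraries, at 329 and 316, were below all others of that line. Whether these libraries hold RNA of the other line was not tested. Of the 10 fibroblast markers listed, 10 were in the table and above 0 in every library (313 or more). Of 12 markers of other cell types (among them Epcam, Ptprc and Pecam1) 0 were in it, so their levels were not analysed here. No gene of the table had a mean under 99.6, so markers at lower counts would not appear. The normalized totals ran from 34014608 to 46057140 per library, with the 2 h serum libraries at 45073651 or more and no doxycycline or 0 h library above 37401882. Scaling to equal totals lowered the median log2 change of all genes by -0.374 at 2 h of serum and by -0.214 at 6 h, and all changes below are read against the deposited scaling. In bulk RNA, fewer cells with a transcript and less transcript per cell cannot be told apart. The E2f1 gene itself had 1703 and 1637 in the E2F1 line at 0 h and 1535 and 1755 at 2 h, with no rise (-0.02, adjusted p of 0.946). It rose there by 1.15 at 6 h (adjusted p of 9.61e-08) and 0.73 at 12 h (adjusted p of 1.65e-05), and did not pass in the EV line at 6 h of doxycycline (-0.17, adjusted p of 0.908). Under serum E2f1 fell by -1.09 at 2 h (adjusted p of 5.76e-08) and rose by 1.43 at 12 h (adjusted p of 4.12e-09). It then stood at 4615 and 4247, above every E2F1-line library. Whether reads of the inserted E2F1 count toward this gene is not known here, so its counts may not measure the induced E2F1.

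The promoter windows show which of these genes carry the letters of the C/EBP-ATF element near their start. Each RefSeq window (GRCm38.p6) runs from 250 bases before to 50 bases after the annotated start, and all 10 genes had one, Psat1 a pair. The 8-letter motif TGATGNAA, searched on both strands, was in the windows of 4 of the 10 genes and in 3.97% of 32851 windows of the same length. The fixed form TTGCATCA was in 2 of the 10 and in 0.895% of all windows, and both of its matches are also matches of TGATGNAA on the other strand. The cAMP response element TGACGTCA was in 0 of the 10 and in 1.79% of all. These matches are a description of letters and not of binding. The 4 genes with a match also had the largest log2 rises of the 10 after 2 h of serum. This was noticed with the data seen, and a link between motif and change was not tested. Their 4 windows are printed for that reason, and capitals mark the matched letters. They are Atf3 (chr1:191183284-191183583, minus strand), Chac1 (chr2:119350992-119351291, plus strand), Trib3 (chr2:152344011-152344310, minus strand) and Asns (chr6:7693160-7693459, minus strand).
Atf3: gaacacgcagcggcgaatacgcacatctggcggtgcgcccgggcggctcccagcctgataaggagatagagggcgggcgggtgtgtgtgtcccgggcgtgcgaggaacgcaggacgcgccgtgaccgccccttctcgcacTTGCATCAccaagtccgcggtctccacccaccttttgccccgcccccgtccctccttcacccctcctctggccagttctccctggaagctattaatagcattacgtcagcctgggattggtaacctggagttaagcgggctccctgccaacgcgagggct
Chac1: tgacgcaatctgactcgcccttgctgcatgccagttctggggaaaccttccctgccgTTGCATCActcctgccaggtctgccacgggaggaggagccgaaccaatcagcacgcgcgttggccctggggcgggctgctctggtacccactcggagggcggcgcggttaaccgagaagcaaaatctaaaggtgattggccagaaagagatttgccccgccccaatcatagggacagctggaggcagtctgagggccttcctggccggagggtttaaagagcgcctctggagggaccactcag
Trib3: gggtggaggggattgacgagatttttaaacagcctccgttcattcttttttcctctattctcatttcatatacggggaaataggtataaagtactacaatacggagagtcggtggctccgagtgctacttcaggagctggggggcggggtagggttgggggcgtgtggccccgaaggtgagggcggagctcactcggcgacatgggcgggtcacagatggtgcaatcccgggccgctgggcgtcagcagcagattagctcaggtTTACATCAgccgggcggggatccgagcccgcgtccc
Asns: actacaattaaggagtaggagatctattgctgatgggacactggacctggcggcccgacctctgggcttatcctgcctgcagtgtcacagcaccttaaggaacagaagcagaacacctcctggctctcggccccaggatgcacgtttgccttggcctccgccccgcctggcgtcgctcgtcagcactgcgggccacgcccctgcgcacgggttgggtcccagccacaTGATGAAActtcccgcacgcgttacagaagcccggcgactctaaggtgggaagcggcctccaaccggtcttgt

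In Atf3 and Chac1 the matched letters began 110 and 193 bases upstream of the start site. In Asns, whose match lies on the strand of the gene, they began 23 bases upstream, and in Trib3 they began 14 bases downstream. These distances are from RefSeq starts. By the GENCODE positions given below, the Trib3 match lies just before the gene, and the Asns and Atf3 matches lie within theirs. The whole Atf3 window lies inside the GENCODE gene, far from its start, as does the pair of Psat1 windows. Atf4, Ddit3, Sesn2, Ddit4, Psat1 and Phgdh had none of the 3 motifs in these windows, which says only that the letters are not in this stretch.

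**Figure D1:**
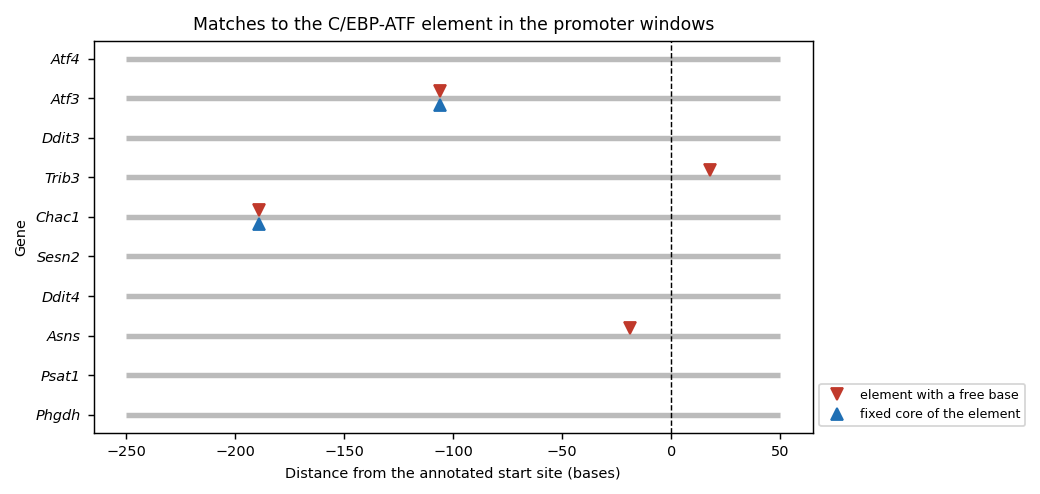
Each grey bar is the promoter window of 1 gene, drawn by distance in bases from the annotated start site (dashed line), and each triangle is the centre of a match to the C/EBP-ATF element. Atf3 and Chac1 match both forms searched, Trib3 and Asns only the form with a free base, and the other 6 genes have no match.

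After 2 h of serum, 9 of the 10 genes were higher than at 0 h, where 37.5% of all genes were called higher (4200 higher and 3752 lower, the latter 33.5%, or 2611 and 5907 under equal totals). The rises ran from 0.54 (Ddit4) to 3.56 (Trib3) on the log2 scale, with a median over all 10 genes of 1.51 against 0.03 over all genes. In these 9 genes both 2 h serum libraries lay above all 16 libraries that received no serum, and in 7 of them above all 20 other libraries. The share of all genes placed in this way was not counted, so these counts have no background. None of the E2F1-line libraries reached the 2 h serum level of any of the 9 genes. The 2 h serum libraries are also those with the most displaced Ddx3y of the EV line. In these 9 genes they stood above the 0 h libraries of both lines, and the part of that displacement in these changes was not tested. At 6 h of serum 7 genes were higher (36.5% of all genes were) and 1 was lower (31.0% of all genes were). At 12 h 4 were higher (36.0% of all) and 2 lower (29.7% of all).

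**Figure D2:**
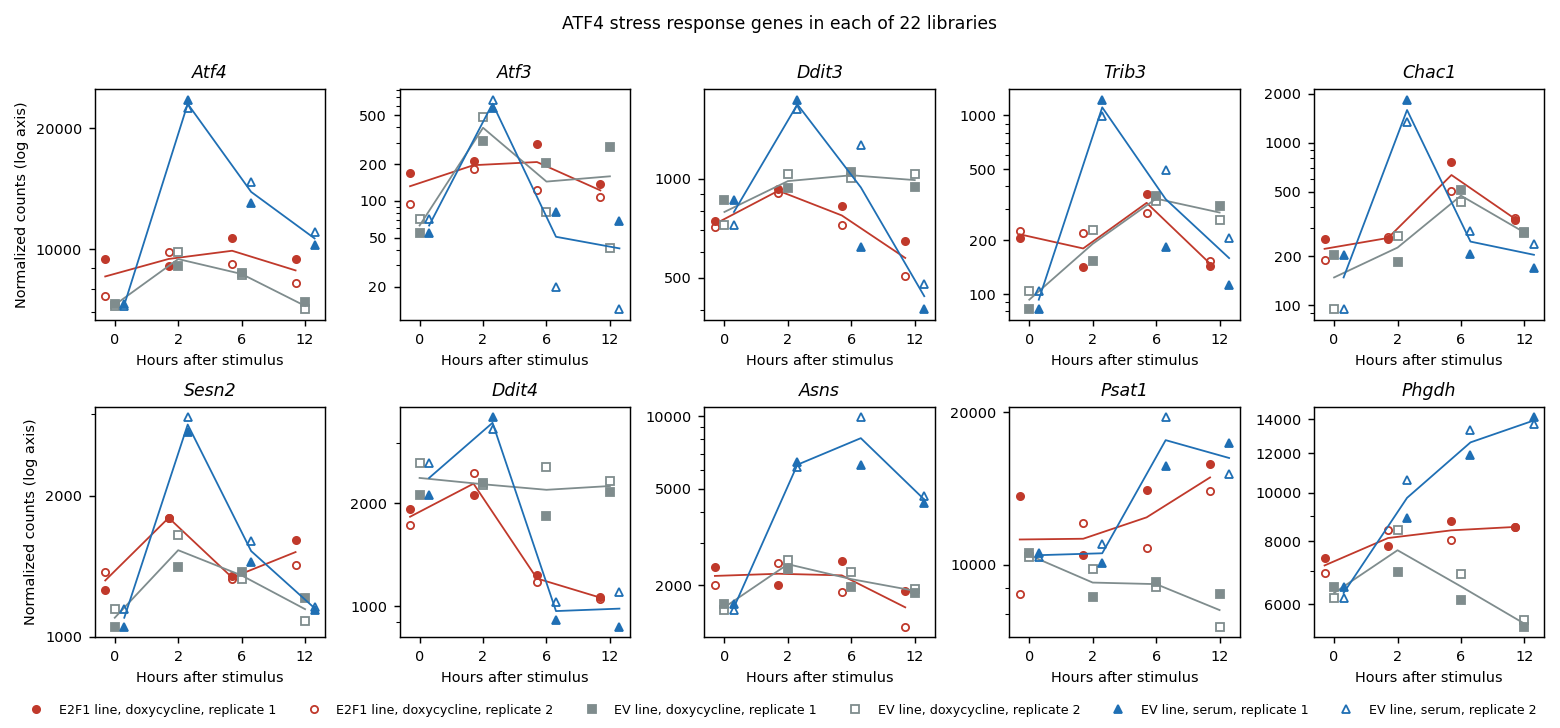
Normalized counts (log axis) of each gene by hours after the stimulus, with filled and open symbols for replicates 1 and 2 and lines through the group means. The EV 0 h libraries are drawn under both EV series, and the blue serum triangles stand highest at 2 h in 7 genes, while Asns and Psat1 peak at 6 h and Phgdh at 12 h.

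Atf4 (chromosome 15, 80255184 to 80257541) encodes the central factor. Its libraries held 7330 and 7244 normalized counts in the EV line at 0 h, 23525 and 22389 after 2 h of serum, 13053 and 14728 after 6 h and 10246 and 11054 after 12 h. Every serum group lay above the 0 h pair, and each later serum group lay below the one before it. The log2 changes were 1.65 at 2 h (SE 0.10, adjusted p of 6.60e-11), 0.93 at 6 h (adjusted p of 2.13e-07) and 0.55 at 12 h (adjusted p of 0.000115). Libraries of the E2F1 line had 9457 and 7687 at 0 h, 9114 and 9832 at 2 h, 10670 and 9182 at 6 h and 9497 and 8250 at 12 h of doxycycline, and these groups overlapped. Its 6 h change there was 0.22 (95% interval 0.00 to 0.43, adjusted p of 0.0808), so a rise larger than 0.43 lies outside that interval. In the EV line doxycycline gave 9101 and 9832 at 2 h, above the 0 h pair, a change of 0.38 (adjusted p of 0.0293) that was lost without any 1 of these 4 libraries and with only the compared groups fitted. It then gave 8743 and 8645 at 6 h and 7392 and 7100 at 12 h, neither of which passed.

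Atf3 (chromosome 1, 191170296 to 191218039, overlapping Gm24748) encodes a stress-induced factor of the same family that also answers to mitogens. It went from 55 and 71 in the EV line at 0 h to 575 and 673 after 2 h of serum, a log2 change of 3.29 (SE 0.80, adjusted p of 0.0012). After 6 h of serum it stood at 82 and 20 and after 12 h at 69 and 13, so the rise was over by then. Replicates of this low gene were far apart, with 277 and 41 in the EV line at 12 h of doxycycline. After 2 h of doxycycline the EV libraries had 310 and 483, above both 0 h libraries, with a change of 2.61 (adjusted p of 0.0534) that did not pass. It passed in 5 of 10 alternative fits, with adjusted p-values from 0.00204 to 0.28 over all of them. The authors' deposited table lists Atf3 for that step with a log2 fold change of 2.63 (adjusted p of 1.17e-09). The E2F1 line had 169 and 94 at 0 h, 211 and 182 at 2 h, 294 and 122 at 6 h and 138 and 107 at 12 h, with no call at any time.

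Ddit3 (chromosome 10, 127290774 to 127296288) encodes CHOP, the factor that links lasting stress to cell death. Its libraries had 860 and 726 at 0 h in the EV line and 1740 and 1625 after 2 h of serum, a log2 change of 1.09 (SE 0.21, adjusted p of 0.000178). At 6 h of serum the replicates differed, with 619 and 1265. At 12 h, with 401 and 479, both were below all other libraries, a change of -0.85 against 0 h (adjusted p of 0.00203). The E2F1 line stayed between 505 and 934, and the EV line under doxycycline between 935 and 1047, with no call in either series. The annotation holds a second entry named Ddit3 and the genes Gm4189 and Mars in the same interval, and strand use of the counting is not given, so the Ddit3 counts are uncertain to that extent.

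Trib3 (chromosome 2, 152337422 to 152344032) encodes a pseudokinase that dampens the response and binds AKT. Libraries of the EV line had 82 and 104 at 0 h and 1226 and 993 after 2 h of serum, a log2 change of 3.56 (SE 0.36, adjusted p of 6.11e-08). After 6 h of serum they had 184 and 497 (1.70, adjusted p of 0.000415), and after 12 h 112 and 206 (0.71, adjusted p of 0.089). On doxycycline the EV line had 154 and 228 at 2 h (1.01, adjusted p of 0.0959), and Trib3 rose to 352 and 331 at 6 h (1.87, adjusted p of 0.046) and 312 and 259 at 12 h (1.61, adjusted p of 0.0151). The 6 h call was lost without any 1 of its 4 libraries, with only the compared groups fitted and without the 2 h doxycycline libraries. Ddx3y in those 6 h libraries was above its 0 h level, and its part in the Trib3 and Chac1 changes there was not tested. The 12 h call was lost without either 0 h library or without 12 h replicate 1. E2F1-line counts were 207 and 224 at 0 h, 141 and 219 at 2 h, 362 and 285 at 6 h and 144 and 153 at 12 h. Neither its 6 h change (0.57, adjusted p of 0.19) nor its 12 h change (-0.53, adjusted p of 0.206) passed. At 0 h Trib3 was the 1 gene of the 10 called between the lines (8.86% of all genes were called higher in the E2F1 line), by 1.21 (adjusted p of 0.0305), a call lost without any 1 of those 4 libraries.

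Chac1 (chromosome 2, 119351229 to 119354381) encodes an enzyme that breaks down glutathione. The EV line had 203 and 94 at 0 h and 1841 and 1335 after 2 h of serum, a log2 change of 3.49 (SE 0.30, adjusted p of 7.82e-09). At 6 h of serum it had 207 and 285 (0.81, adjusted p of 0.0248) and at 12 h 169 and 238, a level that overlapped 0 h. The 6 h serum call was lost under equal totals, with only the compared groups fitted, and without replicate 2 of the 0 h or of the 6 h serum libraries. Both lines had more Chac1 at 6 h of doxycycline. The E2F1 line went from 255 and 189 to 761 and 504 (1.49, adjusted p of 0.000499) and the EV line to 509 and 434 (1.76, adjusted p of 0.0142). At 12 h the counts were 335 and 345 in the E2F1 line (0.63, adjusted p of 0.0795) and 278 and 282 in the EV line (1.01, adjusted p of 0.0697). The EV call at 6 h was lost with only the compared groups fitted and without 0 h replicate 2 or either 6 h library, with an adjusted p of up to 0.663.

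Sesn2 (chromosome 4, 132492032 to 132510501, overlapping Gm12981) encodes sestrin 2, which senses leucine and restrains mTORC1. Its EV libraries had 1049 and 1146 at 0 h, 2737 and 2951 after 2 h of serum, 1444 and 1605 after 6 h and 1142 and 1159 after 12 h. The change was 1.37 at 2 h (SE 0.10, adjusted p of 7.42e-10) and 0.47 at 6 h (adjusted p of 0.000408). Sesn2 was also higher at 2 h of doxycycline in both lines, at 1797 and 1795 against 1260 and 1378 in the E2F1 line (0.45, adjusted p of 0.0272) and at 1409 and 1653 in the EV line (0.48, adjusted p of 0.00799). The first call was lost without any 1 of its 4 libraries, the second without 0 h replicate 1 or 2 h replicate 2 and with only the compared groups fitted. Ddx3y was displaced in both of these 2 h doxycycline groups, as in the 2 h serum group, and the part of that in these changes was not tested.

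Ddit4 (chromosome 10, 59949669 to 59951834) encodes REDD1, another brake on mTORC1 that also answers to low oxygen and glucocorticoids. Over the serum series it was called higher at 2 h and lower at 6 and 12 h, while Ddit3 was called higher at 2 h and lower at 12 h. From 2112 and 2631 at 0 h it stood at 3573 and 3302 after 2 h (0.54, adjusted p of 0.00222), at 910 and 1027 after 6 h (-1.29, adjusted p of 2.70e-07) and at 870 and 1097 after 12 h (-1.27, adjusted p of 4.05e-07). The 2 h rise did not pass under quantile normalization or equal totals. The E2F1 line had 1920 and 1733 at 0 h, 2112 and 2452 at 2 h, 1233 and 1178 at 6 h (-0.60, adjusted p of 0.00189) and 1067 and 1052 at 12 h (-0.78, adjusted p of 0.000111). In the EV line on doxycycline it remained between 1834 and 2545, overlapping 0 h at each time.

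Asns (chromosome 6, 7675169 to 7693254) encodes asparagine synthetase, a classic readout of amino acid shortage. The EV line held 1671 and 1577 at 0 h, 6446 and 6144 after 2 h of serum, 6302 and 9901 after 6 h and 4356 and 4690 after 12 h. All 6 serum libraries were above all 16 others, with log2 changes of 1.95 (SE 0.18, adjusted p of 2.29e-08), 2.28 (adjusted p of 4.60e-09) and 1.48 (adjusted p of 1.45e-06). Asns in the E2F1 line had 2374 and 2003 at 0 h, 2001 and 2467 at 2 h, 2516 and 1884 at 6 h and 1900 and 1348 at 12 h. The 12 h change against 0 h was a fall of -0.45 (adjusted p of 0.0423), which was lost without 0 h replicate 1, without 12 h replicate 2 and when the 2 h doxycycline libraries were left out of the fit. From 6 to 12 h the change was -0.44 (adjusted p of 0.0672) and did not pass. On doxycycline the EV line had 2336 and 2557 at 2 h, 1978 and 2268 at 6 h and 1866 and 1934 at 12 h, with no call. Its 2 h change there, 0.59 (adjusted p of 0.0576), passed in 3 of 11 alternative fits.

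Psat1 (chromosome 19, 15904678 to 15947337, overlapping Gm3329) and Phgdh (chromosome 3, 98313170 to 98339990) encode enzymes of serine synthesis from glucose. Psat1 had 10529 and 10353 in the EV line at 0 h, and 10064 and 11000 after 2 h of serum, a pair on both sides of the 0 h level. It rose later, to 15671 and 19580 at 6 h (0.75, adjusted p of 0.000651) and 17395 and 15107 at 12 h (0.63, adjusted p of 0.00267). Phgdh, the first enzyme of the path, went from 6478 and 6160 at 0 h to 8927 and 10619 at 2 h (0.62, adjusted p of 1.70e-05), 11886 and 13324 at 6 h (0.99, adjusted p of 7.09e-08) and 14158 and 13722 at 12 h (1.14, adjusted p of 1.79e-08). Its 2 h call was lost under quantile normalization, as was that of Psat1 at 6 h. A named pseudogene, Phgdh-ps1, may share reads with Phgdh.

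Both enzymes passed in the E2F1 line at 12 h only, among the 3 times tested. Psat1 had 13679 and 8748 at 0 h, the widest pair of that gene, then 10427 and 12078, 14027 and 10779, and 15784 and 13963 at 2, 6 and 12 h (0.44 at 12 h, adjusted p of 0.028). Phgdh had 7413 and 6922, then 7826 and 8429, 8777 and 8063, and 8569 and 8535 (0.26 at 12 h, adjusted p of 0.0318). Neither 12 h call held under quantile normalization, without 0 h replicate 2 or without 12 h replicate 1, and that of Phgdh was also lost without 12 h replicate 2 and under equal totals. The EV line on doxycycline had Psat1 between 7532 and 9816 and Phgdh between 5406 and 8422, with no call.

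Calls among the 10 genes in the E2F1 line were set beside the shares of all genes, and a departure from these shares was not tested. At 2 h 1 of the 10 genes was higher (0.865% of all genes were), namely Sesn2. At 6 h 1 was higher (28.8% of all genes) and 1 lower (22.9% of all), Chac1 and Ddit4. At 12 h 2 were higher (31.8% of all) and 2 lower (29.7% of all). The median change of the 10 genes was 0.21, 0.19 and 0.00 at the 3 times, against 0.02, -0.03 and -0.02 for all genes. At 12 h 9 of the 10 fibroblast markers were lower and 0 higher (median -0.70), and their summed level was 689846 and 716904 against 1101089 and 1112057 at 0 h. The part of that in the 12 h changes of the 10 genes was not tested. The EV line on doxycycline had 2 of the 10 higher at 2 h (4.93% of all genes), 2 at 6 h (0.134% of all) and 1 at 12 h (0.749% of all), and none passed as lower by limma. With an unadjusted p under 0.05 the 3 EV counts in either direction were 7, 4 and 3 of 10 at 2, 6 and 12 h, against 23.3%, 5.90% and 16.8% of all genes.

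**Figure D3:**
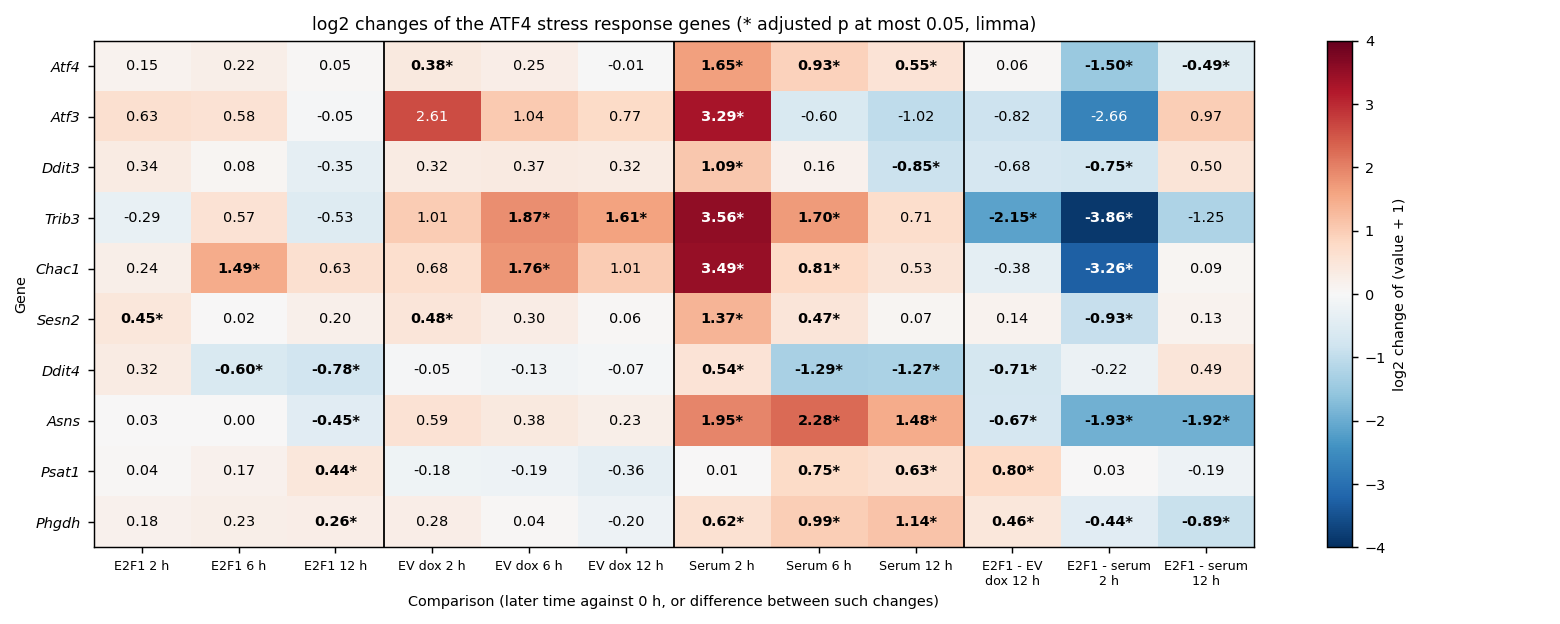
log2 changes of each gene (rows) in 12 comparisons (columns), with calls in bold and starred. The serum columns hold the strong red cells, and Ddit4 turns from red to blue between 2 and 6 h of serum. The E2F1 line columns against 0 h show 7 starred cells and the serum columns against 0 h show 23. Of all 11208 genes 208, 5799 and 6898 were called at 2, 6 and 12 h in the E2F1 line. Under serum 7952, 7563 and 7367 were called.

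The doxycycline changes of the 2 lines were then compared. There is 1 line per construct, and 1684 genes were called between the lines at 0 h, so the construct and the line cannot be told apart. At 2 h 0 of the 10 genes passed by limma (0.0535% of all genes were called higher and 0.0892% lower), with 2 at an unadjusted p under 0.05 (7.78% of all genes). At 6 h again 0 passed (22.2% and 12.3% of all genes), with 2 at an unadjusted p under 0.05 (44.7% of all genes). The nearest was Trib3 at -1.30 (adjusted p of 0.0559), which passed in 4 of 15 alternative fits. At 12 h 2 genes were higher (27.3% of all) and 3 lower (23.3% of all). Psat1 differed by 0.80 (SE 0.23, adjusted p of 0.00809) and Phgdh by 0.46 (SE 0.14, adjusted p of 0.0106), and in each the E2F1 12 h libraries were above their 0 h pair and the EV 12 h libraries below theirs. Trib3 differed by -2.15 (SE 0.51, adjusted p of 0.00181), Ddit4 by -0.71 (adjusted p of 0.00643) and Asns by -0.67 (adjusted p of 0.0379). The Asns call was lost in 6 of 16 alternative fits, that of Psat1 without E2F1 0 h replicate 2 and that of Phgdh under quantile normalization. The Trib3 difference includes its 0 h gap between the lines, since the E2F1 line began higher and ended lower than the EV line.

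The doxycycline change of the E2F1 line was also set against the serum change of the EV line at the same hour, across lines with separate baselines. At 2 h the counts of the E2f1 gene, which may miss the inserted E2F1, had not risen in the E2F1 line. Ddx3y was displaced in both groups, with a difference of -5.18 between the changes (adjusted p of 5.19e-07). At that hour 7 of the 10 genes had a lower change in the E2F1 line (30.2% of all genes did). Trib3 differed most (-3.86, SE 0.51, adjusted p of 4.11e-06), followed by Chac1 (-3.26, adjusted p of 3.92e-06), Asns (-1.93), Atf4 (-1.50), Sesn2 (-0.93), Ddit3 (-0.75, adjusted p of 0.0417) and Phgdh (-0.44, adjusted p of 0.0114). The Phgdh difference turned to 0.04 under quantile normalization, and that of Ddit3 was lost in 9 of 15 alternative fits. Atf3 differed by -2.66 with an adjusted p of 0.0519 and did not pass, but passed in 4 of 14 alternative fits. At 6 h 5 genes were lower (27.6% of all) and Ddit4 was higher by 0.69 (30.3% of all genes were higher). Asns had the largest of these differences at -2.28 (adjusted p of 7.06e-07), with Phgdh at -0.76, Atf4 at -0.71, Psat1 at -0.58 (adjusted p of 0.0425) and Sesn2 at -0.45. The Psat1 call was lost in 9 of 16 alternative fits. At 12 h, when E2f1 counts were higher under serum than in the E2F1 line, 3 genes were lower (23.8% of all). They were Asns (-1.92), Phgdh (-0.89) and Atf4 (-0.49, lost without E2F1 0 h replicate 1). Trib3 at 6 h (-1.13, adjusted p of 0.0661) and 12 h (-1.25, adjusted p of 0.0506) and Ddit4 at 12 h (0.49, adjusted p of 0.0525) did not pass. They passed in 3 of 15, 5 of 15 and 5 of 16 alternative fits.

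Steps within a series were compared after the values had been seen. From 2 to 6 h of serum 7 of the 10 genes fell (24.3% of all genes did) and 2 rose (24.3% of all). The falls ranged from -0.73 for Atf4 (adjusted p of 1.10e-05) to -3.90 for Atf3 (adjusted p of 0.00056), with Chac1 at -2.69, Trib3 at -1.86 and Ddit4 at -1.83. Phgdh (0.37, adjusted p of 0.00469, lost without 2 h replicate 1 or 6 h replicate 2) and Psat1 (0.74, adjusted p of 0.00131) rose, and Asns at 0.33 (adjusted p of 0.151) did not pass. From 2 to 12 h of serum 8 fell (31.7% of all) and 2 rose (31.7% of all), the same 2 serine enzymes. The fall of Asns over that span, -0.48 (adjusted p of 0.0299), was lost under quantile normalization and equal totals and without any 1 of its 4 libraries. The 7 regulators and effectors thus had their highest group mean at 2 h of serum, Asns and Psat1 theirs at 6 h and Phgdh at 12 h. In the E2F1 line 2 genes fell from 6 to 12 h of doxycycline (20.2% of all genes did), Trib3 by -1.11 (adjusted p of 0.0232) and Chac1 by -0.86 (adjusted p of 0.0339). Both falls were lost without 6 h replicate 1 or either 12 h library.

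The spread between replicates was wider for these genes than for the table as a whole. In 10 of the 11 groups the median gap between replicates over the 10 genes was above the median over all genes. It was widest after 6 h of serum, at 0.39 against 0.16 on the log2 scale. There replicate 2 was the higher library in 9 of the 10 genes, with Trib3 at 497 against 184 and Ddit3 at 1265 against 619, and Atf3 at 20 against 82 as the exception. In the E2F1 line at 6 h replicate 2 was the lower library in all 10. The normalized totals of replicates 1 and 2 went the same way in each group. They were 40132639 and 41407438 at 6 h of serum and 37401882 and 36606142 in the E2F1 line at 6 h. The share of all genes with replicate 2 higher or lower was not counted, so these counts have no background.

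Per kilobase of annotated exon, Atf4 had the highest level of the 10 genes in the EV line at 0 h, 3090.3 ± 25.8 (SD, n = 2) normalized counts per kilobase. Phgdh (2542 ± 90.5) and Psat1 (2454 ± 29.3) followed within a SD of each other, then Ddit4 (1351 ± 209). Asns (594 ± 24.3), Ddit3 (463 ± 55.3) and Sesn2 (316 ± 19.7) came next, and Chac1 (90.7 ± 47.1), Trib3 (43.8 ± 7.32) and Atf3 (29.2 ± 5.25) were lowest. After 2 h of serum Atf4 stood at 9736 ± 341 per kilobase and Chac1 at 970 ± 219, level with Ddit3 at 982 ± 47.5, while Trib3 (522 ± 77.5) and Atf3 (290 ± 32.2) were still the lowest.

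For 4 of the genes the most similar profiles over the 11 group means were listed by Pearson r, as a description. Atf4 was closest to Coq10b (0.992), Rabgef1 (0.985) and Eaf1 (0.979). Ddit3 was closest to Casc4 (0.955), Cyth1 (0.953) and Irx3 (0.953). Trib3 was closest to Trim8 (0.910), Lamc1 (0.907) and Slc3a2 (0.892), the last being the heavy chain of amino acid transporters. Asns was closest to the threonyl- and asparaginyl-tRNA synthetase genes Tars (0.989) and Nars (0.984) and to the annotated pseudogene Gm9892 (0.986). The 11 points share baselines and libraries, so these values carry no test.

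The counts of the gene lists that follow stand against the shares of all genes called higher and lower. These were 37.5% and 33.5% at 2 h of serum, 36.5% and 31.0% at 6 h, and 36.0% and 29.7% at 12 h. In the E2F1 line they were 28.8% and 22.9% at 6 h, and 31.8% and 29.7% at 12 h. Upstream of ATF4, 9 of 13 genes for eIF2alpha kinases, phosphatase subunits and the eIF2 machinery were higher at 2 h of serum and 1 was lower, and 11 and 1 at 6 h. Eif2ak4, the kinase GCN2 that senses uncharged tRNA, rose by 1.38 at 2 h (adjusted p of 1.45e-09) and 1.13 at 12 h (adjusted p of 4.64e-08). Eif2ak3, the ER kinase PERK, had 0.13 at 2 h (adjusted p of 0.431) and rose by 0.92 at 6 h (adjusted p of 2.10e-05). Ppp1r15a, the GADD34 subunit that reverses eIF2alpha phosphorylation and is itself an ATF4 response gene, rose by 0.95 at 2 h of serum (adjusted p of 1.56e-05). In the E2F1 line Ppp1r15a fell by -0.69 at 6 h (adjusted p of 0.000929) and -1.13 at 12 h (adjusted p of 3.64e-06). That list had 3 genes higher and 4 lower at 12 h in the E2F1 line, among them Impact, an inhibitor of GCN2 activation, at -1.27 (adjusted p of 4.43e-08) and Eif2b1 at 0.66 (adjusted p of 1.12e-05).

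Among 15 ATF and C/EBP partner factors 7 were higher and 4 lower at 2 h of serum, and 3 and 6 at 12 h in the E2F1 line. Both totals, 11 and 9 of 15, were near the shares of all genes. Cebpg, a binding partner of ATF4, rose by 0.91 at 2 h of serum (adjusted p of 1.79e-08) and by 0.81 at 12 h in the E2F1 line (adjusted p of 1.98e-07). Jund fell in both, by -0.79 (adjusted p of 6.39e-05) and -0.73 (adjusted p of 0.000199).

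Of 13 further enzymes of serine, glycine, one-carbon and other amino acid metabolism, 9, 11 and 11 were higher at 2, 6 and 12 h of serum and none was lower by limma. Their median changes were 1.01, 1.57 and 1.23. At 12 h in the E2F1 line 4 were higher and 4 lower, with a median of 0.30, a total of 8 of 13 that is near the share of all genes called there. Mthfd2, the mitochondrial folate enzyme, rose by 2.57 at 2 h of serum (adjusted p of 3.86e-09) and by 1.98 at 12 h in the E2F1 line (adjusted p of 2.71e-07). Shmt1, the cytosolic serine hydroxymethyltransferase, rose by 2.51 at 12 h of serum (adjusted p of 8.26e-10) and by 1.67 at 12 h in the E2F1 line (adjusted p of 1.33e-07). Bcat1, a branched-chain aminotransferase, rose by 2.72 at 2 h of serum (adjusted p of 1.13e-10) and by 0.58 at 12 h in the E2F1 line (adjusted p of 0.00717, lost without 0 h replicate 2 or 12 h replicate 1).

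Of 12 amino acid transporters, 7 were higher and 3 lower at 2 h of serum, and 4 and 2 at 12 h in the E2F1 line, where the higher count is near and the lower count below the share of all genes. Slc7a1, a carrier of cationic amino acids, rose by 2.27 at 2 h of serum (adjusted p of 5.26e-10) and by 2.04 and 1.64 at 6 and 12 h in the E2F1 line (adjusted p of 8.12e-09 and 9.55e-08). Slc6a9, a glycine carrier, fell by -1.45 at 2 h of serum (adjusted p of 6.21e-05) and by -1.49 at 12 h in the E2F1 line (adjusted p of 7.14e-05). The same 12 carriers had 6 higher (28.8% of all genes were) and 1 lower (22.9% of all) at 6 h in the E2F1 line.

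Of 19 genes of the ER unfolded protein response, 18 were higher at 2 h of serum, 19 at 6 h and 14 at 12 h, with 1 lower at 12 h. Their median peaked at 6 h, at 1.73, against 1.12 at 2 h and 0.92 at 12 h. The number called in either direction at 2 h was lower in some alternative fitting, while that at 6 h stayed the same in all. Hyou1, an ER chaperone, rose by 1.60 at 2 h (adjusted p of 7.13e-08) and 2.95 at 6 h (adjusted p of 4.63e-11), and Sdf2l1, a partner of the chaperone BiP, by 3.32 at 6 h (adjusted p of 3.94e-10). Xbp1, the factor spliced under ER stress, rose by 1.26 at 2 h (adjusted p of 1.15e-09). In the E2F1 line the 12 h counts were 6 higher and 7 lower, with Xbp1 at -1.50 (adjusted p of 5.38e-10), Hyou1 at -0.71 (adjusted p of 0.00109) and Edem1 at 1.00 (adjusted p of 1.43e-05).

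Among 13 other ATF4 response genes 10 were higher and 2 lower at 2 h of serum, and 3 and 5 at 12 h in the E2F1 line. Stc2, a secreted glycoprotein induced by ER stress, rose by 1.85 at 2 h and 2.62 at 12 h of serum (adjusted p of 2.78e-05 and 6.72e-07) and fell by -1.26 at 12 h in the E2F1 line (adjusted p of 0.00157). Bbc3, the death gene PUMA, fell by -2.42 at 2 h of serum (adjusted p of 1.48e-08). While Sesn2 and Ddit4 were higher at 2 h of serum, 8 of 8 other sestrin and mTORC1 brake genes were lower. The median of that list was -1.77, with Sesn1 at -2.90 (adjusted p of 1.19e-11) and Sesn3 at -2.80 (adjusted p of 6.03e-12), both sestrins that FOXO factors or p53 are known to induce.

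In the EV line at 6 h of doxycycline 0 of the 91 genes on the 7 lists passed by limma, where 0.134% of all genes were called higher and none lower by limma. At an unadjusted p under 0.05 there were 11 of 91, against 5.90% of all genes. Medians of the 7 lists at 6 h lay between 0.04 and 0.17, against 0.00 for all genes. Trib3 and Chac1 were the genes called there, under the limits given above.

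**Figure D4:**
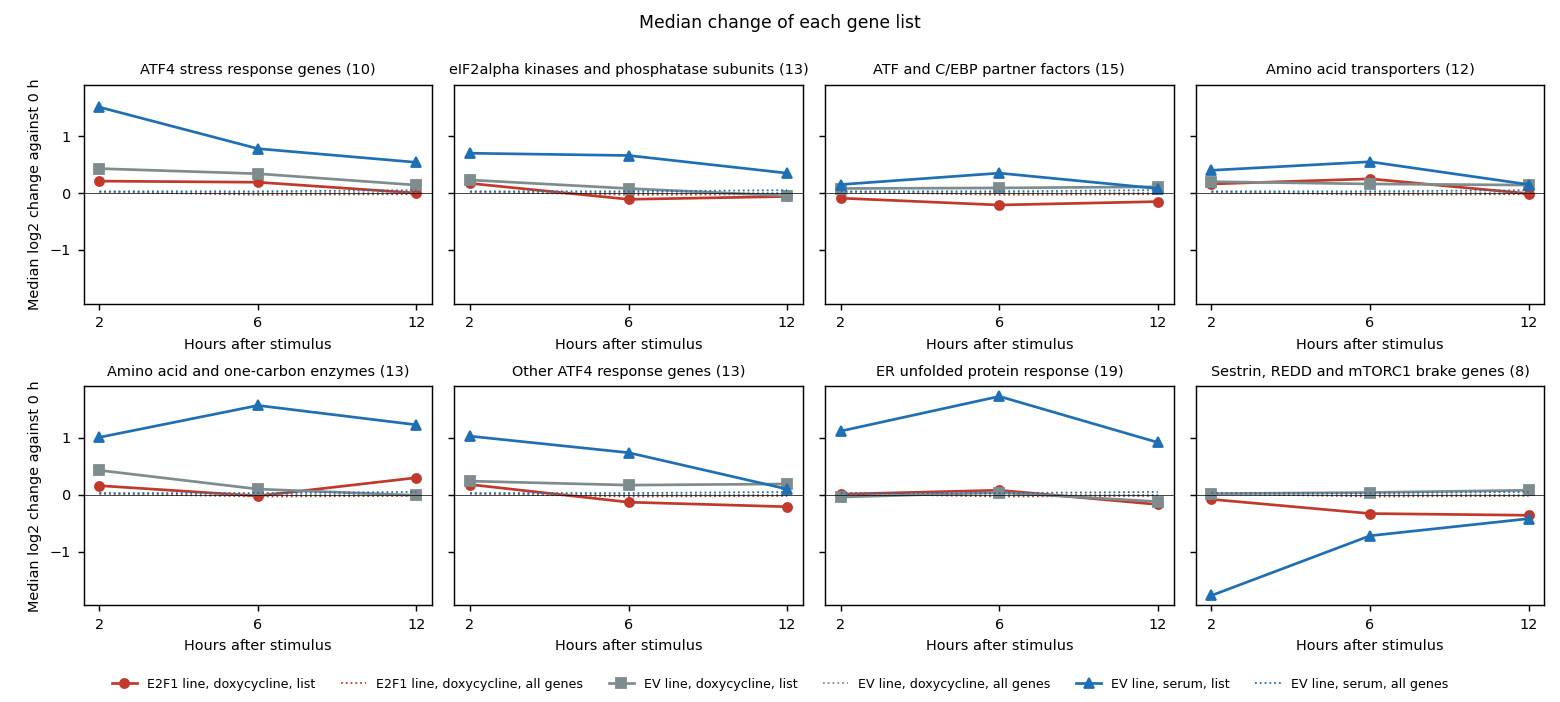
Median log2 change against 0 h of the 10 genes and of 7 gene lists (number of genes in brackets) at 2, 6 and 12 h, with dotted lines for all genes. Serum medians (blue) lead at each time in the ER, enzyme and eIF2alpha panels and in that of the 10 genes. In the transporter and other ATF4 response panels they lead at 2 and 6 h. At 12 h they are 0.15 and 0.10 there, against 0.14 and 0.19 in the EV line on doxycycline. The sestrin and mTORC1 brake list lies at -1.77 at 2 h of serum, and the E2F1 and EV doxycycline medians stay between -0.36 and 0.43.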

How the data were processed

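RNA was measured in 22 libraries, grouped by the line, stimulus, time and replicate number in the labels. The submitters' processing notes name FastQC, Trimmomatic, HISAT2, featureCounts, DESeq2 and build mm10, without versions or roles; the scaling method, strand use and annotation release are not given in the sources used here. The main table holds normalized counts that the authors scaled and rounded, so they were treated as a score and not as raw counts. The authors also deposited, per comparison, a log2 fold change and an adjusted p-value for the genes they list. These were only quoted, with the serum 0 h group taken as the EV 0 h libraries.

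From these, limma 3.58.1 (R 4.3.3) was run on log2(value + 1) for all 11208 genes, with 1 mean for each of the 11 groups, which leaves 11 residual degrees of freedom, and trended empirical Bayes variances. A filter of at least 10 in 2 libraries removed 0 genes. The lowest gene mean over the libraries was 99.6, so genes with few counts were already missing from the deposited values. Shares of all genes refer to the 11208 genes left. Of 19 comparisons, 3 (steps within the serum and E2F1 series) were added after seeing the data. The fitting code was first tested on simulated counts. Alternatives were a pseudocount of 8, quantile normalization, equal totals, a mean of at least 500, a block for the replicate number, a fit of the compared groups alone, no 2 h doxycycline libraries, and leaving out each replicate. The labels do not say what the replicate numbers share, and they were not taken to pair the samples.

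The 10 genes and all gene lists were chosen with earlier results of these data known, and list counts carry no test of the list. Besides the 10 genes, the text names from the lists up to 3 genes of largest change in each of 3 comparisons, Eif2ak3, Eif2ak4, Ppp1r15a and E2f1, and their values elsewhere were picked with the data seen. Positions are from GENCODE M21 on GRCm38, where 10977 of 11208 identifiers matched by version, and promoter windows from RefSeq. Tables and figures were made in Python 3.11.15 (pandas 2.3.3, numpy 2.4.6, matplotlib 3.10.9).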

Additional observations from a re-analysis of the deposited data

Results flagged for a closer look

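Differences between the changes of 2 groups passed the test of the difference for these genes in 21 cases, all given in the report. Between the E2F1 and EV doxycycline changes at 12 h they were Asns (-0.67), Ddit4 (-0.71), Phgdh (0.46), Psat1 (0.80) and Trib3 (-2.15). Between the E2F1 and serum changes they were, at 2 h, Asns (-1.93), Atf4 (-1.50), Chac1 (-3.26), Ddit3 (-0.75), Phgdh (-0.44), Sesn2 (-0.93) and Trib3 (-3.86). At 6 h they were Asns (-2.28), Atf4 (-0.71), Ddit4 (0.69), Phgdh (-0.76), Psat1 (-0.58) and Sesn2 (-0.45), and at 12 h Asns (-1.92), Atf4 (-0.49) and Phgdh (-0.89). In this order the counts were 5, 7, 6 and 3 of the 10 genes. Of all 11208 genes, 5665, 6359, 6493 and 5471 passed in the same comparisons. Some of these calls were lost in alternative fits, as given above. No group held the 4 or more samples that a check for single outlying libraries needs.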

How the results depend on the processing

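Of 78 calls of the 10 genes over the 19 comparisons, 53 held in every alternative run and 25 were lost in at least 1. A single call, Phgdh in the E2F1 change minus the serum change at 2 h, changed sign, to 0.04 under quantile normalization. Of 112 changes that were not called, 45 changed sign and 32 passed somewhere. A mean of at least 500 drops Atf3, Trib3 and Chac1 and gave 1 call instead of 2 at 6 h in the E2F1 line. It gave 0 instead of 2 and 0 instead of 1 at 6 and 12 h in the EV line on doxycycline, 0 instead of 1 between the lines at 0 h and 0 instead of 2 from 6 to 12 h in the E2F1 line. With only the groups compared the count at 2 h in the EV line on doxycycline was 2 as before, but of Atf3 and Asns in place of Atf4 and Sesn2. The other counts that moved were 4 at 6 h in the E2F1 line, 0 at 6 h in the EV line, 4 from 6 to 12 h in the E2F1 line and 1 instead of 0 for the 6 h difference between the lines. Quantile normalization gave 2 instead of 4 at 12 h in the E2F1 line, 4 instead of 2 and 2 instead of 1 at 2 and 12 h in the EV line on doxycycline, and 3 for the 6 h difference between the lines. Equal totals gave 4 at 2 h in the EV line on doxycycline, 3 for the 6 h difference between the lines, 5 instead of 3 for E2F1 minus serum at 12 h and 2 between the lines at 0 h. Without the 2 h doxycycline libraries the 6 h EV count was 1. The replicate block gave 1 for the 6 h difference between the lines and 5 for E2F1 minus serum at 12 h, and moved no other count of the 10 genes by more than 1.5 times. Over 55 pairs of groups the replicate differences correlated with a median of 0.03 (-0.28 to 0.45), with 18 over 0.1. Among these were the 0, 6 and 12 h doxycycline groups within each line (0.142 to 0.357 in the E2F1 line, 0.303 to 0.455 in the EV line). The 2 h doxycycline group had negative values with those groups of its line (-0.277 to -0.148 in the E2F1 line, -0.161 to -0.014 in the EV line). This grouping was made with the values seen and is not from the design. Whether same-numbered libraries share a source was not tested.

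Leaving out 1 library at a time, the counts ran from 0 to 0 at 2 h, 2 to 4 at 6 h and 2 to 3 at 12 h in the E2F1 line, where the single call at 2 h was thus always lost. They ran from 0 to 2, 0 to 1 and 0 to 1 in the EV line on doxycycline, and from 9 to 9, 7 to 9 and 6 to 8 under serum. For E2F1 minus EV they ran from 0 to 0, 0 to 1 and 4 to 6, and for E2F1 minus serum from 5 to 7, 5 to 8 and 2 to 4. They ran from 0 to 1 between the lines at 0 h, 8 to 10 and 9 to 9 from 2 to 6 h and from 2 to 12 h of serum, and 0 to 3 from 6 to 12 h in the E2F1 line. The group left with 1 library is assumed to vary like the others.

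Counts over all genes moved by more than 1.5 times in 6 comparisons. They were 208 (26 to 596) at 2 h in the E2F1 line, 824 (157 to 1025), 15 (1 to 30) and 467 (26 to 803) at 2, 6 and 12 h in the EV line on doxycycline, 16 (2 to 51) for the 2 h difference between the lines, and 1684 (652 to 1961) between the lines at 0 h. The split of calls over all genes depended on scaling. Equal totals gave 2914 higher and 4772 lower at 6 h of serum (4093 and 3470 as deposited), 4970 and 1966 for E2F1 minus serum at 2 h (2977 and 3382), 1345 and 524 between the lines at 0 h (993 and 691), 5 and 15 for the 2 h difference between the lines (6 and 10), 4077 and 1793 from 2 to 6 h of serum (2722 and 2718), 5539 and 2003 from 2 to 12 h of serum (3549 and 3553) and 2130 and 1771 from 6 to 12 h in the E2F1 line (1688 and 2265), and also 2683 and 3781 at 6 h in the E2F1 line and 2101 and 2251 for the 6 h difference between the lines. Quantile normalization gave 2657 and 3820 at 6 h in the E2F1 line (3230 and 2569), and 2068 and 2583 (2493 and 1373) and 2659 and 3457 (3059 and 2606) for the 6 and 12 h differences between the lines. The depth in reads is not known, and the low counts of Atf3, Trib3 and Chac1, with gaps between replicates of up to 2.73 on the log2 scale, limit what these groups of 2 can show.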
